A study of Homo sapiens with 15 samples.

Results

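Collagen-binding integrins and discoidin receptors are the cell surface proteins through which a cell holds on to collagen and senses it. This set has 7 genes, taken by symbol from a table of 18858 genes, and each of the 7 symbols had a row of its own. 4 are alpha chains (ITGA1, ITGA2, ITGA10 and ITGA11), 1 is the beta chain that each of them pairs with (ITGB1), and 2 are receptor kinases (DDR1 and DDR2). RNA was measured in MDA-MB-231 cells, an established line of triple-negative breast adenocarcinoma, on gelatin, which is denatured collagen. The study asked how YAP and TAZ, the co-activators at the end of the Hippo pathway, act on invadopodia, the matrix-degrading protrusions of invasive cells.

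Cells were left untransfected (Control) or given a control pool of siRNAs without a target (siControl), siRNAs against YAP1 (siYAP), siRNAs against WWTR1, which encodes TAZ (siTAZ), or the mixture of the YAP1 and WWTR1 pools (siYAP+TAZ). Each siRNA pool was at 30 nM, knockdown lasted 48 h, and the cells then spent 5 to 6 h on gelatin-coated plates before RNA extraction. All 15 samples carry a wild-type label and come from this single line, so nothing here extends to other cells. There were 3 libraries per group, numbered 16, 21 and 26 for Control, 17, 22 and 27 for siControl, 18, 23 and 28 for siYAP, 19, 24 and 29 for siTAZ, and 20, 25 and 30 for siYAP+TAZ. The siYAP+TAZ cells received 2 pools, and the amount of siRNA and the co-knockdown cannot be told apart. RNA alone was read here, so the values say nothing of the receptors at the cell surface.

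An integrin is a pair of an alpha and a beta chain, and the alpha chain sets most of what the pair binds. The 4 alpha chains here carry an extra inserted domain that recognises the collagen triple helix. ITGA1 serves mainly basement membrane collagen IV, ITGA2 fibrillar collagen I, ITGA10 is best known from cartilage, and ITGA11 from fibroblasts. DDR1 and DDR2 are receptor tyrosine kinases that collagen itself activates, slowly and without integrins. DDR1 is typical of epithelial cells and DDR2 of mesenchymal cells.

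By the GENCODE 44 annotation of GRCh38, ITGA1 (chr5:52787916-52959209, plus strand) and ITGA2 (chr5:52989340-53094779, plus strand) are neighbours, with 30130 bases between the end of ITGA1 and the start of ITGA2. ITGA10 lies at chr1:145891208-145910111 on the minus strand, ITGA11 at chr15:68296532-68432163 on the minus strand and ITGB1 at chr10:32887273-33005792 on the minus strand. DDR1 lies at chr6:30876421-30900156 on the plus strand and DDR2 at chr1:162631373-162787405 on the plus strand. Counts were made per gene over its exons. PELO, a gene of ribosome rescue, starts at the same base as ITGA1 on the same strand, and 2.69% of the exonic bases of ITGA1 are also exonic in PELO. The pseudogene RPL17P21 covers a further 3.08% on the same strand, and same-strand overlaps came to 5.77% in all. The antisense gene ITGA2-AS1 covers 7.47% of the exonic bases of ITGA1 on the other strand, and ITGB1-DT 2.75% of those of ITGB1. Of the stretches of 50 bases in the exons of ITGB1, 3.55% also occur in another gene, the pseudogene ITGB1P1 among them, and 5.87% of those of ITGA1 do. Whether reads were counted by strand is not given in the sources used here, so the share of reads from the antisense genes is unknown.

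The bases before the transcription start are shown for 4 members, because ITGA1, ITGA2 and ITGA10 were higher in siYAP+TAZ than in siControl while ITGB1 did not pass the test. DDR1 was also higher, but has 8 start windows and is given by counts. They are the 250 bases before the RefSeq start on GRCh38.p14, read 5′ to 3′ on the strand of the gene. ITGB1 has 2 such windows, and the one printed is the upstream one. The other (chr10:32935559-32935808, 41.6% G and C) held no match to GGAATG. Capitals mark GGAATG on either strand, the core letters that TEAD factors, the DNA-binding partners of YAP and TAZ, recognise.
ITGA1, chr5:52787666-52787915, plus strand: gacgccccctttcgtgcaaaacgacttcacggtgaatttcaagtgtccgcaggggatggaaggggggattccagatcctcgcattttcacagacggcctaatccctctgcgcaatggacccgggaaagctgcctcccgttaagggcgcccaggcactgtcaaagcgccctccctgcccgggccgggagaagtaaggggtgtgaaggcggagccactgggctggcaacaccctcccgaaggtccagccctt
ITGA2, chr5:52989102-52989351, plus strand: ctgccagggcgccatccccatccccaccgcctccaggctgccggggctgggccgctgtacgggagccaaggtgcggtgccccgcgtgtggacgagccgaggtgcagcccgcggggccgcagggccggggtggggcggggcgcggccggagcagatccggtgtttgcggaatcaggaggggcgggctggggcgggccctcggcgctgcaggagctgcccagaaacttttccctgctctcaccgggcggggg
ITGA10, chr1:145910051-145910300, minus strand: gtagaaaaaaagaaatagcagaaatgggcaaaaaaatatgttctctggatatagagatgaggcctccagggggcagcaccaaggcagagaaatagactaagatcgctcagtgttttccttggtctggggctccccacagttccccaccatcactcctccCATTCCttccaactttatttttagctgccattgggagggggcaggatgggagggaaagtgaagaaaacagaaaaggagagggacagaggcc
ITGB1, chr10:32958231-32958480, minus strand: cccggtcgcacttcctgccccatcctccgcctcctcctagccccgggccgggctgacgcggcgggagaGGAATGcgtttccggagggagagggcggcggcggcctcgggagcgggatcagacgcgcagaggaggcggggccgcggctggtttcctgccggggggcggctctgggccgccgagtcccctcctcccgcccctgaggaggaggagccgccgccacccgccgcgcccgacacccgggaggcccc

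RefSeq lists 17 start windows for the 7 genes, 8 of them for DDR1, 3 for DDR2, 2 for ITGB1 and 1 for each alpha chain. GGAATG was found on either strand in 3 of the 17 windows, 1 each of ITGA10, ITGB1 and DDR1, against 10.1% of the 17100 windows of genes in the table. In ITGA10 the letters begin 91 bases before the start and lie on the strand opposite to the gene, and in ITGB1 they begin 182 bases before it on the strand of the gene. The AP-1 letters TGAGTCA or TGACTCA were in 1 of the 17 windows, a window of DDR1, against 3.28% of all windows. The SP1 letters GGGCGG, again on either strand, were in 6 of the 17 windows, against 60.9% of all windows. These were the window of ITGA2, with 4 matches, the printed window of ITGB1, with 3, and 4 windows of DDR1. Of the DDR1 windows, 2 overlap (chr6:30883658-30883907 and chr6:30883834-30884083) and share their 1 match. No match of one motif overlapped a match of another in any of the 17 windows. The 4 printed windows ranged in G and C from 48.4% for ITGA10 to 78.4% for ITGB1, beside a median of 64.0% over all windows. A match of letters is a description of the window and no sign of binding.

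The libraries held 18696737 to 30107312 counted reads, with a median of 22902846. YAP1 lay at 4202, 4333 and 4431 normalized counts in siControl, at 761, 1013 and 2764 in siYAP and at 1796, 2202 and 2240 in siYAP+TAZ, so each knockdown library was below every siControl library. WWTR1 lay at 1579, 1850 and 1995 in siControl, at 254, 521 and 828 in siTAZ and at 1123, 1133 and 1284 in siYAP+TAZ. The siYAP+TAZ libraries thus kept 41.5% to 51.8% of the mean siControl level of YAP1 and 62.1% to 71.0% of that of WWTR1. Neither target passed the test there (adjusted p of 0.072 and 0.20, edgeR). The fit estimates the spread of a gene over all 5 groups together. For YAP1 the SD was 1091 in siYAP and 246 in siYAP+TAZ, and for WWTR1 287 in siTAZ and 90.2 in siYAP+TAZ. The paper reported both knockdowns as efficient in this line by RT-qPCR and western blot. In the single knockdowns YAP1 did not pass in siYAP (log2 fold change -1.51, adjusted p = 0.099), and WWTR1 passed both thresholds in siTAZ (-1.74, adjusted p = 0.019). Of markers of the line, VIM, CD44, CAV1 and EGFR had at least 7858 reads in every library, and CAV1, a caveolar coat protein, was lower in siYAP+TAZ than in siControl (log2 fold change -0.35, adjusted p = 0.0065). Of 4 markers expected to be low in it, the table holds PGR, with at most 7 reads, and GATA3, with 379 to 697. Of 4 markers of other cell types it holds PTPRC, with at most 6.

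Levels between genes were compared as RPKM, the read count scaled to exon length and library size. Exon length was that of all annotated exons of a gene joined, 14561 bases for ITGB1, 7896 for ITGA2 and 18545 for ITGA1. The transcripts made can be shorter, so ratios between genes depend on this choice. In normalized counts, ITGB1 stood at a mean of 15082 in siControl and ITGA2 at 1668. In siControl, ITGB1 stood first at 43.8 ± 0.626 RPKM (SD, n = 3), 4.90 times the level of the next member. ITGA2 followed at 8.93 ± 1.17 RPKM and DDR1 at 7.45 ± 0.203 RPKM, and the ranges of ITGA2 (7.63 to 9.91) and DDR1 (7.23 to 7.64) met. ITGA1 (0.573 ± 0.126 RPKM), ITGA10 (0.344 ± 0.110 RPKM) and DDR2 (0.202 ± 0.0266 RPKM) were far lower. The ranges of ITGA1 and ITGA10 did not overlap (0.460 to 0.708 and 0.218 to 0.421), and the lowest ITGA10 library lay below the highest DDR2 library (0.229). ITGA11 stood last with 33 reads in all 15 libraries together and at most 6 in any library. Among the 7 members the RNA was thus mostly that of ITGB1, ITGA2 and DDR1. Outside the set, the collagen receptors ADGRG1 (12.2 RPKM) and MRC2 (11.9 RPKM) stood above ITGA2 in siControl.

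After co-knockdown, 4 of the 7 members passed both thresholds (adjusted p not above 0.05, and log2 fold change of 1 or more in either direction), and all 4 were higher than in siControl. They were ITGA1, ITGA2, ITGA10 and DDR1. Of all 18858 genes, 652, or 3.46%, passed both thresholds, and 18.4% passed the adjusted p alone, as did the same 4 members. The median log2 fold change was 1.24 over the 7 members and 0.00 over all genes. In bulk RNA, a change in the RNA of each cell and a change in the share of cells that make it cannot be told apart.

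ITGA2 lay at 1426, 1727 and 1851 normalized counts in siControl and at 5102, 5755 and 6612 in siYAP+TAZ, a log2 fold change of 1.80 (SE 0.14, 95% interval 1.51 to 2.09, adjusted p = 5.02e-07, edgeR). By p-value it ranked 24 of all 18858 genes, the highest rank of the 7. ITGA10 lay at 32.2, 58.3 and 62.1 in siControl and at 172, 191 and 197 in siYAP+TAZ, with a log2 fold change of 1.86 (SE 0.24, interval 1.36 to 2.37, adjusted p = 3.65e-05). ITGA10 thus had a fold change close to that of ITGA2 at a small fraction of its level. ITGA1 lay at 202, 241 and 310 in siControl and at 540, 611 and 623 in siYAP+TAZ, a log2 fold change of 1.23 (SE 0.16, interval 0.89 to 1.57, adjusted p = 5.05e-05). For these 3 alpha chains, every siYAP+TAZ library lay above every library of the other 4 groups.

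PELO, which shares its start with ITGA1, lay at 1380, 1684 and 1710 normalized counts in siControl and at 1425, 1675 and 1799 in siYAP+TAZ. Its log2 fold change was 0.04 (interval -0.16 to 0.24, adjusted p = 0.84, edgeR), and the groups overlapped. The difference of ITGA1 was therefore not shared by the gene that begins at the same base. ITGA11 had 4, 0 and 1 reads in siControl and 3, 5 and 6 in siYAP+TAZ, and its difference did not pass (fitted log2 interval -0.19 to 3.33, adjusted p = 0.22).

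ITGB1, the partner of all 4 alpha chains, lay at 14854, 15110 and 15282 normalized counts in siControl and at 15790, 15860 and 17832 in siYAP+TAZ. All siYAP+TAZ libraries were above all siControl libraries, but the log2 fold change of 0.13 (SE 0.08, interval -0.04 to 0.30) did not pass (adjusted p = 0.32, edgeR), and Control, at 14660 to 18257, spanned both groups. The interval excludes a change of the size seen in the alpha chains.

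The discoidin receptors differed in direction. DDR1 lay at 1561, 1613 and 1648 normalized counts in siControl and at 3212, 3473 and 4708 in siYAP+TAZ, a log2 fold change of 1.24 (SE 0.13, interval 0.97 to 1.51, adjusted p = 6.45e-06, edgeR). Without library 30, the highest, it was 1.06. DDR2 lay at 46.1, 52.7 and 60.1 in siControl and at 23.9, 33.3 and 39.7 in siYAP+TAZ, every one below siControl. Its log2 fold change of -0.73 (SE 0.26, interval -1.27 to -0.18) missed the threshold (adjusted p = 0.059), and was -0.53 (adjusted p = 0.24) without library 30. Against the untransfected Control, DDR2 passed the adjusted p (log2 fold change -0.91, adjusted p = 0.018), although 1 Control library (38.1) lay within the range of siYAP+TAZ. In that comparison 5 of the 7 members passed the adjusted p (19.4% of all genes) and 4 passed both thresholds (3.79%).

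By library, 6 members were higher in all siYAP+TAZ than in all siControl libraries and 1, DDR2, was lower in all of them. For ITGA11 this holds after normalization and not for its raw reads. Of all genes, 18.2% lay wholly above and 18.2% wholly below, so the pattern of ITGB1 or ITGA11 alone is common in the table.

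**Figure D1:**
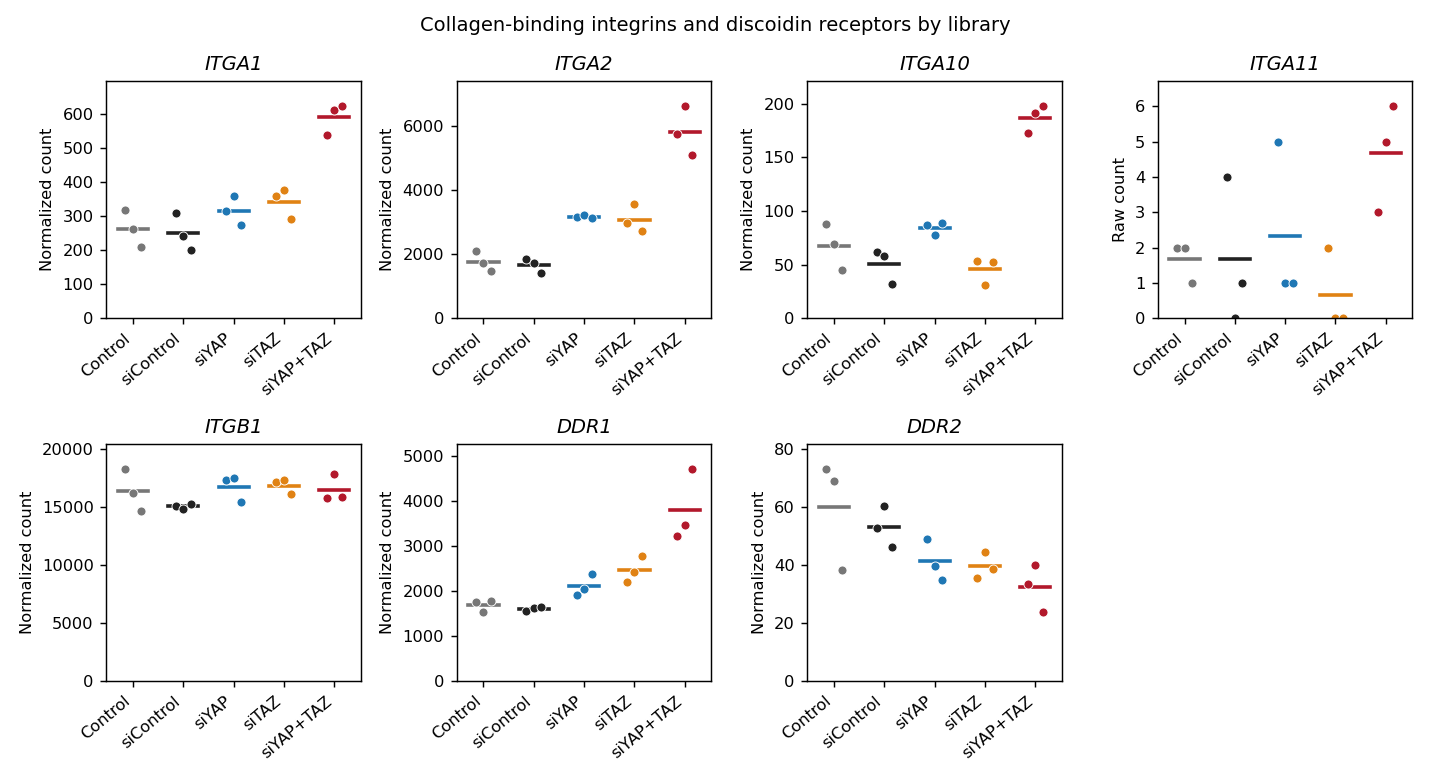
Normalized counts (y axis, from 0; raw counts for ITGA11) of the 7 members in the 15 libraries, by group (x axis), with points for libraries and lines for group means (n = 3). ITGA1, ITGA2, ITGA10 and DDR1 stand highest in siYAP+TAZ, ITGB1 stays between 14660 and 18257, and DDR2 is lowest at 23.9 in a siYAP+TAZ library.

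Single knockdowns moved fewer members. In siYAP, ITGA2 (3124, 3150 and 3228 normalized counts) was higher than in siControl by 0.92 on the log2 scale (SE 0.13, interval 0.64 to 1.21, adjusted p = 0.0047, edgeR). It was the only member of 7 past the adjusted p there, a threshold that 0.933% of all genes passed. No member passed both thresholds, as 0.0955% of all genes did, nor did any by DESeq2. At an unadjusted p under 0.05 there were 3 members, and 2241 of all 18858 genes. In siTAZ, ITGA2 (2711, 2960 and 3563) was higher by 0.88 (SE 0.13, interval 0.60 to 1.17, adjusted p = 0.0047) and DDR1 (2192, 2413 and 2767) by 0.61 (SE 0.13, interval 0.35 to 0.88, adjusted p = 0.017). These were 2 of 7 members past the adjusted p against 2.03% of all genes, and again none passed both thresholds by edgeR or DESeq2 (0.212% of all genes), with 3 members and 3023 of all genes at an unadjusted p under 0.05. The DDR1 call in siTAZ was lost without library 17, 22, 24 or 29, with adjusted p of 0.073 to 0.093.

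The other members did not pass after either single pool. ITGA1 reached a log2 fold change of 0.33 in siYAP (adjusted p = 0.45, edgeR) and of 0.45 in siTAZ (adjusted p = 0.18), and its libraries overlapped with siControl in both. DDR1 in siYAP lay at 1905, 2054 and 2385, all above siControl, with a log2 fold change of 0.40 (interval 0.13 to 0.66, adjusted p = 0.17). DDR2 had log2 fold changes of -0.36 (adjusted p = 0.63) and -0.43 (adjusted p = 0.43), and ITGB1 of 0.15 (adjusted p = 0.51) and 0.16 (adjusted p = 0.36). All siYAP libraries lay above all siControl libraries for 4 members (9.65% of all genes). All siTAZ libraries did so for 3 members (10.7%) and lay below for 1, DDR2 (10.2%).

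Apart from the sparse ITGA11, ITGA10 was the member whose values differed most between the single pools. It lay at 77.1, 86.6 and 88.3 normalized counts in siYAP and at 30.5, 52.7 and 53.4 in siTAZ. Against siControl this was a log2 fold change of 0.71 (interval 0.19 to 1.23, adjusted p = 0.22, edgeR) for siYAP and of -0.16 (interval -0.73 to 0.40, adjusted p = 0.83) for siTAZ. The siTAZ value turned to 0.00 without siControl library 17 and to 0.046 without siTAZ library 24. Between the single knockdowns the log2 fold change was 0.87 (SE 0.26, interval 0.33 to 1.41), higher in siYAP with no overlap of libraries, but with an adjusted p of 0.13 and an unadjusted p of 0.0031. No member passed in that comparison by edgeR (0.642% of all genes passed the adjusted p and 0.0636% both thresholds), 1 member and 2576 of all genes had an unadjusted p under 0.05, and by DESeq2 ITGA10 passed the adjusted p at 0.048.

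**Figure D2:**
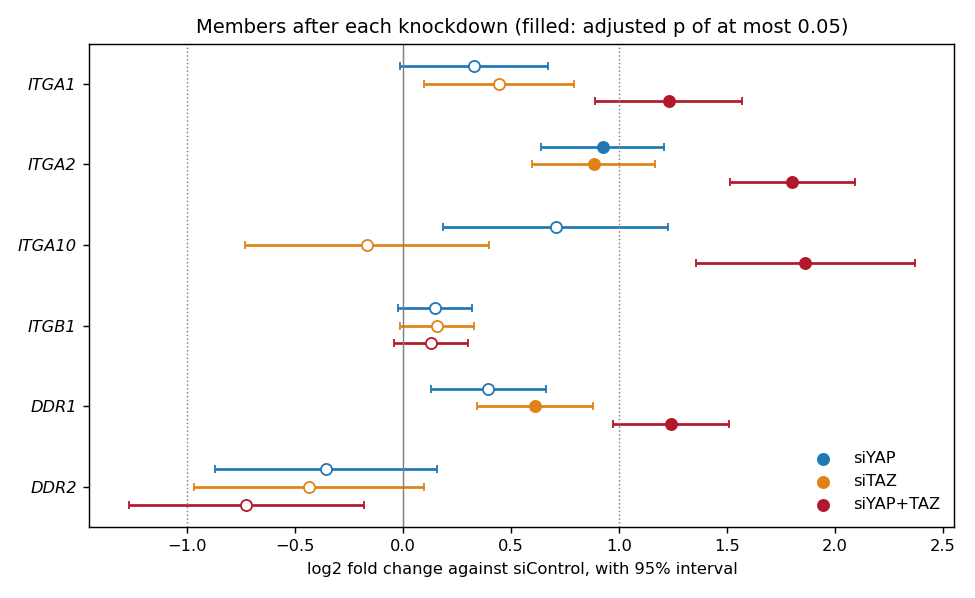
Fitted log2 fold change against siControl (x axis) of 6 members (y axis) after each knockdown, with 95% intervals as bars. Filled points have an adjusted p of at most 0.05 (edgeR) and dotted lines mark a log2 fold change of 1 in either direction. ITGA2 stands at 0.92 and 0.88 in the single knockdowns and at 1.80 in siYAP+TAZ, while the 3 intervals of ITGB1 all include 0.

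Co-knockdown was then set against each single knockdown. ITGA1, ITGA2, ITGA10 and DDR1 were higher in siYAP+TAZ than in siYAP, by 0.90, 0.88, 1.16 and 0.85 on the log2 scale (adjusted p of 0.0027, 0.0011, 0.0060 and 0.00082, edgeR). They were higher than in siTAZ by 0.79, 0.92, 2.03 and 0.63 (adjusted p of 0.0080, 0.0011, 0.00015 and 0.0075). In both comparisons 4 of 7 members passed the adjusted p (5.13% of all genes against siYAP and 5.44% against siTAZ) and 1, ITGA10, passed both thresholds (0.742% and 0.78%). For ITGA10 the order of the group means was siTAZ (45.5 normalized counts), siControl (50.8), Control (67.1), siYAP (84.0) and siYAP+TAZ (187), in which no neighbours but the last pair differed past the adjusted p.

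The interaction term asks whether the log2 change of siYAP+TAZ departs from the sum of the single changes. For ITGA2 it was 0.00 (SE 0.19, interval -0.40 to 0.39), so the single changes of 0.92 and 0.88 summed to the 1.80 of the co-knockdown within that interval. For ITGA10 it was 1.32 (SE 0.35, interval 0.58 to 2.06, unadjusted p = 0.0015), for ITGA1 0.46 (SE 0.23, interval -0.02 to 0.94) and for DDR1 0.23 (SE 0.18, interval -0.14 to 0.61). None of the 7 members passed the adjusted p by edgeR (ITGA10 at 0.46) or by DESeq2, and 1 member and 1104 of all genes had an unadjusted p under 0.05. Of all genes, 0.0106% passed the adjusted p and 0.0053% both thresholds. With the run of library numbers as a block, which the labels do not name as a batch, ITGA10 passed, as given with the alternatives below. YAP1 RNA was higher in every siYAP+TAZ library than in 2 of the 3 siYAP libraries, and WWTR1 RNA higher than in all 3 siTAZ libraries. The part of this in the interaction was not tested.

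No member differed between siControl and Control past the test. Between siControl and Control 0 of 7 members and 0 of all genes passed either threshold by edgeR (0.0%) or by DESeq2, 0 members and 398 genes had an unadjusted p under 0.05, and the 2 groups overlapped for every member. The largest of the 7 differences was that of ITGA10, with Control libraries at 44.7, 68.8 and 87.9 and a fitted log2 difference of -0.40 (interval -0.94 to 0.14). Against Control in place of siControl, its log2 fold change in siYAP+TAZ was 1.46 and not 1.86.

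Per length of exon, the RNA of the 4 collagen-binding alpha chains summed to 11.1, 10.2 and 8.32 RPKM in siControl, to 18.2, 18.6 and 18.0 in siYAP, to 17.0, 20.1 and 15.5 in siTAZ and to 33.2, 38.1 and 30.1 in siYAP+TAZ. Among 9 alpha chains that can pair with ITGB1 and have a row (ITGA3, ITGA5, ITGA6, ITGA7 and ITGAV besides the 4), the collagen-binding chains made up 3.08% ± 0.592 (SD, n = 3) in siControl, 5.33% ± 0.214 in siYAP, 4.75% ± 0.513 in siTAZ and 8.85% ± 0.579 in siYAP+TAZ. No library of a knockdown group overlapped siControl, and an exact two-sided permutation test gave p = 0.1 for each, the smallest p that 3 libraries against 3 allow. Each comparison of this kind therefore cannot pass 0.05. ITGA3, a laminin-binding chain, remained the main one, with 72.2% ± 2.96 in siControl and 60.7% ± 2.66 in siYAP+TAZ. ITGA6 and ITGAV also pair with other beta chains, so these shares describe RNA and not integrin pairs. The size of each share also depends on the exon lengths used.

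Within the collagen-binding chains ITGA2 held 90.7% ± 1.06 in siControl and 92.1% ± 1.18 in siYAP+TAZ, with overlapping libraries. Its share lay wholly above siControl (89.7% to 91.8%) in siYAP (92.8% to 93.2%) and in siTAZ (93.0% to 94.7%). ITGA1 held 5.78% ± 0.547 in siControl and 4.03% ± 0.601 in siYAP+TAZ, without overlap (exact permutation p = 0.1). ITGA10 held 3.43% ± 0.703 in siControl, 1.81% ± 0.690 in siTAZ and 3.78% ± 0.571 in siYAP+TAZ. Set against ITGB1, the 4 chains stood at 22.5 ± 3.36 RPKM per 100 RPKM of ITGB1 in siControl and at 70.5 ± 4.47 in siYAP+TAZ, again with p = 0.1 in the exact permutation test. The size of this ratio depends on the exon lengths used, so it is not a ratio of RNA molecules. The ratio of DDR1 to DDR2 in RPKM was 36.0, 32.7 and 43.5 in siControl and 117, 106 and 240 in siYAP+TAZ, with 47.3 to 83.1 in siYAP and 65.9 to 87.3 in siTAZ (exact permutation p = 0.1 for each against siControl). In 1 Control library the ratio was 56.6, above the lowest of siYAP.

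**Figure D3:**
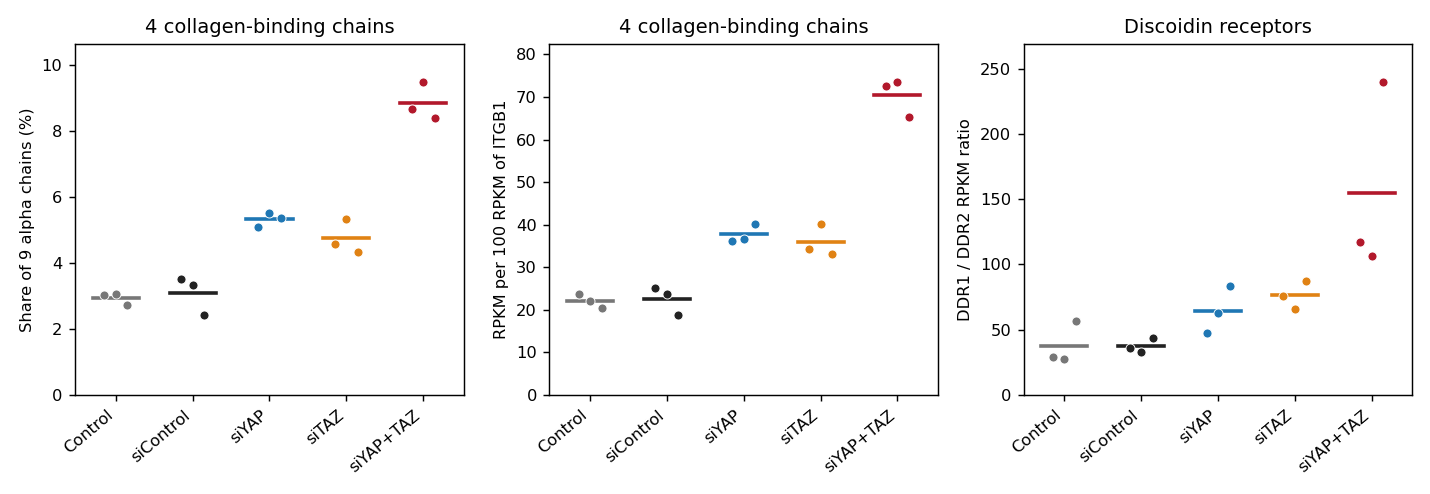
By group (x axis), the share of the 4 collagen-binding alpha chains in the RPKM of 9 alpha chains, in percent (left), their RPKM per 100 RPKM of ITGB1 (middle), and the ratio of DDR1 to DDR2 in RPKM (right). Points are libraries and lines are means (n = 3), and the siYAP+TAZ libraries, at 8.39% to 9.49% in the left panel, lie above all others in each panel.

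The ligands were described from a list of 17 collagen genes, of which the table holds 15. In siYAP+TAZ against siControl 4 were higher and 1 lower past the adjusted p (18.4% of all genes in either direction), and 10 did not pass. COL6A3 (423 to 952 mean normalized counts, log2 fold change 1.18, adjusted p = 0.0015, edgeR) was higher and COL12A1 (5157 to 2567, log2 fold change -1.01, adjusted p = 0.0027) lower past both thresholds. COL6A1 (0.97), COL5A1 (0.95) and COL4A5 (0.95) were higher past the adjusted p alone. COL4A2, a basement membrane collagen with the highest mean count of the list, had a log2 fold change of -0.10 (adjusted p = 0.74). The median of the list was 0.65. In siTAZ, COL5A1 (1.13, adjusted p = 0.014) and COL6A3 (1.03, adjusted p = 0.023) passed both thresholds (0.212% of all genes), and in siYAP none of the 15 passed the adjusted p, as 0.933% of all genes did.

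Of 8 other alpha chains that pair with ITGB1 the table holds 5. ITGA5, the fibronectin receptor chain (5330 to 9235 mean normalized counts, log2 fold change 0.79, adjusted p = 0.0069, edgeR), ITGA6 (0.40, adjusted p = 0.0028) and ITGAV (0.30, adjusted p = 0.016) were higher in siYAP+TAZ past the adjusted p, each with a smaller fold change than ITGA1, ITGA2 or ITGA10. ITGA3 had a log2 fold change of -0.01 (adjusted p = 0.94), and the median of the 5 was 0.40. Of 5 other collagen receptors the table holds 3, and 2 were higher past the adjusted p (18.4% of all genes). They were ADGRG1, an adhesion receptor that binds collagen III (log2 fold change 0.95, adjusted p = 6.58e-08), and MRC2, which takes up collagen fragments (0.68, adjusted p = 0.00070). The median of these 3 was 0.68. ADGRG1 also passed the adjusted p in siYAP (0.34, adjusted p = 0.018) and in siTAZ (0.40, adjusted p = 0.0057).

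Of 23 listed adaptors and kinases that link integrins to actin and signalling the table holds 22, of which 5 passed the adjusted p in siYAP+TAZ, against 18.4% of all genes, and 17 did not. PTK2B, a kinase related to focal adhesion kinase (141 to 376 mean normalized counts, log2 fold change 1.42, adjusted p = 0.00027, edgeR), passed both thresholds, and TNS2 (0.57), SRC (0.48), TGFB1I1 (0.42) and BCAR1 (0.20) were higher past the adjusted p alone. TLN1, which activates integrins from inside the cell, and VCL, its binding partner, had log2 fold changes of -0.02 (adjusted p = 0.86) and 0.23 (adjusted p = 0.13). The median of the 22 was 0.10. Of the 8 listed inhibitors and traffic proteins of ITGB1, the table holds 7. RAB11FIP1 (-0.40, adjusted p = 0.0030) was lower past the adjusted p, the only one of 7 against 18.4% of all genes. The actin cross-linker FLNA (-0.10, adjusted p = 0.41) and SNX17, a sorting protein of endosomes (0.11, adjusted p = 0.32), did not pass, and the median was -0.10.

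All 10 genes listed for discoidin receptor signalling were in the table, 2 higher, 1 lower and 7 not past the adjusted p in siYAP+TAZ, which 18.4% of all genes passed. MMP14, the membrane protease that cuts collagen at invadopodia, went from 13701 to 24198 mean normalized counts (log2 fold change 0.82, adjusted p = 2.33e-05, edgeR), and PIK3R1 was higher by 0.31 (adjusted p = 0.023). WWC1, also known as KIBRA, a Hippo pathway scaffold that binds DDR1, was lower by 0.66 (log2 fold change -0.66, adjusted p = 3.01e-05). MYH9 (-0.01, adjusted p = 0.93) did not pass, and the median was 0.04. After the single knockdowns 1 gene of the list passed the adjusted p in each, WWC1 in siYAP (-0.46, adjusted p = 0.012, with 0.933% of all genes past it) and MMP14 in siTAZ (0.62, adjusted p = 0.0047, with 2.03%).

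**Figure D4:**
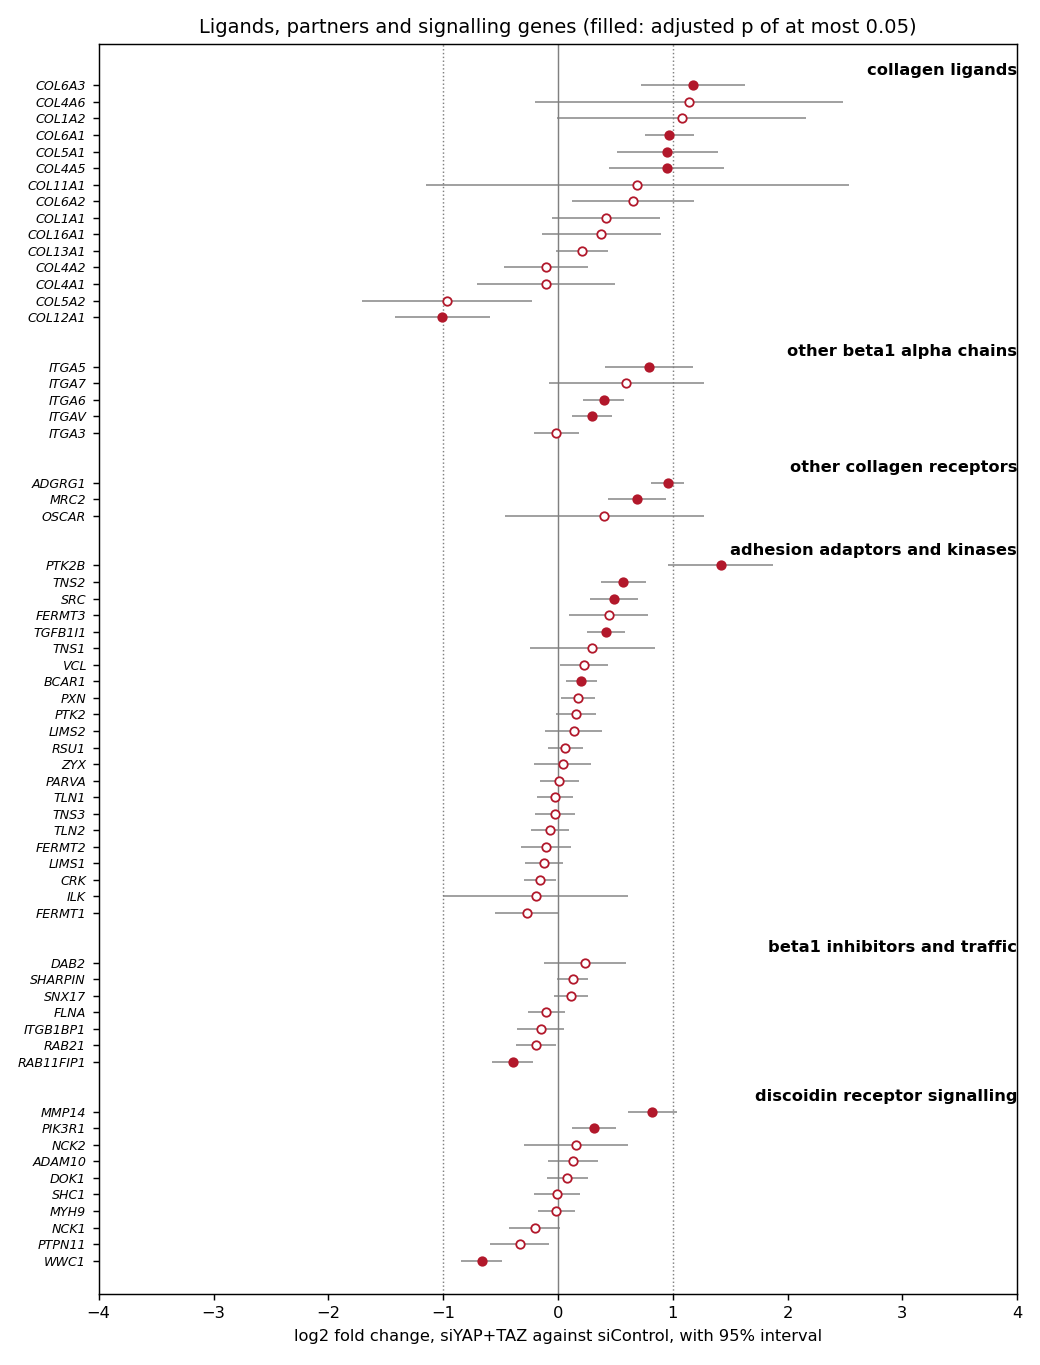
Log2 fold change of siYAP+TAZ against siControl (x axis) with 95% intervals as bars for the listed genes in the table (y axis), by list and ordered within each by value. Filled points have an adjusted p of at most 0.05 (edgeR). PTK2B (1.42) and COL6A3 (1.18) lie past the upper dotted line, at a log2 fold change of 1, with an adjusted p of at most 0.05, and COL12A1 (-1.01) past the lower one.

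Across the 15 libraries, the genes whose log2 CPM followed a member most closely were sought among the 13210 genes whose mean normalized count was 20 or more. The closest to ITGA2 were ATP2B4, a calcium pump of the plasma membrane (Pearson r = 0.983), KIAA1217 (0.977) and NAV1 (0.973), and the closest to DDR1 were GSN, which severs actin filaments (0.984), FAM43A (0.983) and RNASET2 (0.976). For ITGA1 they were CALCOCO1 (0.972), PIK3C2B (0.970) and HBP1 (0.969). ITGA10 had less close ones in ZBTB42 (0.936), RILP (0.931) and TP53I3 (0.929). The libraries share groups, so these values describe likeness over the 5 conditions, and no test was made of them. The 3 genes of each member were different for all 4 members.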

How the data were processed

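Polyadenylated RNA of 15 libraries was read. The authors trimmed the reads, aligned them to GRCh38 with STAR (2.4.2a in the submitters' processing notes) with GENCODE annotation, and deposited raw read counts per gene. The 30 columns of normalized values per sample and the 70 columns of the authors' own comparisons (fold changes, p-values and related columns) were not used. Libraries were grouped by their titles.

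The deposited counts of all 18858 genes were normalized by TMM (factors 0.943 to 1.02) and fitted with edgeR 4.0.16 (robust quasi-likelihood, 1 coefficient per group, R 4.3.3), with Benjamini-Hochberg adjustment over all genes. The test was tried on simulated counts. Normalized counts are scaled to the mean library, and RPKM uses exonic lengths of GENCODE 44, in which 15574 genes matched by name. Log2 CPM used a prior count of 2. P-values measure the spread between libraries of 1 cell line.

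Named were the 7 members, the siRNA targets, PELO, listed genes past both thresholds or among the 2 most abundant of a list (and listed genes past the adjusted p), and the 3 genes most alike. The members and lists were chosen with earlier results of these data known, and 1 gene of a list is not reported here. Alternatives were DESeq2 1.42.0 (test or size factors), library size only, at least 10 reads in at least 3 libraries, no robust estimation, only the groups compared, the run of library numbers as a block, each library left out and, chosen after seeing the data, Control as the reference.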

Additional observations from a re-analysis of the deposited data

How the results depend on the processing

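The count of 4 members past both thresholds in siYAP+TAZ against siControl was the same under each alternative and without each library in turn. Of 113 recomputed counts of members 109 stayed within 1.5 times or at 0. The main count was 0 for siYAP and siTAZ against siControl, siControl against Control, siYAP against siTAZ and the interaction. There only another 0 was taken as unchanged. Leaving out 1 library each gave 0 to 1 members in siYAP against siControl (1, ITGA2 at 1.02, without siControl library 17, where 5 of all genes passed in place of 18) and 1 to 2 in siYAP+TAZ against siTAZ (2, with ITGA2 added, without siTAZ library 24 or siYAP+TAZ library 30, where 88 and 131 of all genes passed in place of 147). Of 458 recomputed log2 fold changes 7 changed sign, all within leaving out libraries. With libraries left out, ITGA10 in siTAZ against siControl ranged from -0.39 to 0.046 and the interaction of ITGA2 from -0.11 to 0.11. Against Control in place of siControl, ITGA10 in siTAZ was at -0.57 (adjusted p = 0.25, edgeR). Where 1 library of a group was left out, 2 remained. The low counts of ITGA11, DDR2 and ITGA10 carry larger errors than those of ITGB1.

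The run of consecutive library numbers (16 to 20, 21 to 25, 26 to 30) is not named in the labels as a batch, and over 13210 genes, deviations correlated from -0.05 to 0.62 (median 0.39) within a run and from -0.57 to 0.39 (median -0.32) between runs, and 10 of 15 libraries were most like one of their own run. Runs were thus more alike within than between, but not for every pair or library, and no pairing was assumed. With the run as a replicate block the interaction had 1 member past both thresholds in place of 0, ITGA10 at 1.34 (adjusted p = 0.038, with 27 of all genes past both in place of 1), and DDR2 in siYAP+TAZ (adjusted p = 0.014), DDR1 in siYAP (0.0026), ITGA1 in siTAZ (0.026) and ITGA10 in siYAP against siTAZ (0.018) came to pass the adjusted p. Past the adjusted p alone, the block gave 5 members in siYAP+TAZ, 2 in siYAP, 3 in siTAZ and 1 in siYAP against siTAZ. Over all genes it raised the counts past both thresholds from 652 to 831, 18 to 72, 40 to 152 and 12 to 54 in these comparisons. It changed no other count of members past both thresholds. The share of all genes past the adjusted p alone was not computed with the block, so the member counts past it cannot be set against one.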
